A study of Mus musculus with 504 samples.

Results

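A set of 9 genes of myeloid and other blood-derived cells was followed through 5-cell pools sorted from mouse mammary tumours: Ptprc, Fcer1g, Tyrobp, Laptm5, Lyz2, Csf1r, Adgre1, Cd68 and Lsp1. They are 9 of the 55450 genes of the deposited count table, taken by symbol through their Ensembl identifiers, in the 335 libraries that the submitters marked as having passed quality control.

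CD45, the product of Ptprc, is a receptor tyrosine phosphatase carried by nearly all nucleated blood cells, and it sets the threshold of antigen receptor signalling by acting on Src-family kinases. Fcer1g and Tyrobp (DAP12) encode small membrane adaptors whose cytoplasmic ITAM motifs recruit the kinase Syk below Fc receptors, Trem2 and other activating receptors. Csf1r is the receptor for CSF1 and IL-34, on which most tissue macrophages depend, and Adgre1 encodes F4/80, a surface protein used to identify mouse macrophages. In mammary tumours of MMTV-PyMT mice, macrophages are a well known part of the stroma, and these genes were followed as their markers. Which cells of a pool their RNA came from was not tested. Cd68 was also found in many epithelial pools, and Lsp1 in pools with collagen RNA and almost no Ptprc.

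All animals carried MMTV-PyMT, which drives mammary tumours, together with MMTV-Flpo and the dual-recombinase reporter RC::FrePe. In 5 animals (Tnc line) tamoxifen-dependent Cre was expressed as Tnc-CreERT2, and in 5 others (Cdh line) as Cdh2-CreERT2. The MMTV promoter is active mainly in mammary epithelium, the reporter gives mCherry after Flp and GFP after Flp and Cre together, and the switch to GFP therefore depends on Tnc or Cdh2 activity in cells that had expressed Flp. Every animal received 2 mg tamoxifen, given repeatedly from week 9 of age until sacrifice at about week 13 to 14. Each library was made by Smart-seq2 from 5 cells sorted together by mCherry, GFP and the epithelial surface protein EpCAM, so genes found in 1 pool need not come from 1 cell. The mCherry gates were P18 (mCherry high, EpCAM high), P17 (mCherry positive, EpCAM high) and P05 (mCherry positive, EpCAM negative). The GFP gates were P15 (EpCAM negative), P10 (EpCAM low), P16 (EpCAM medium) and P09 (GFP high, EpCAM medium), and P22 held cells positive for both reporters with high EpCAM. The Tnc line supplied 55 pools of P18, 11 of P17, 50 of P22, 48 of P09, 26 of P16, 25 of P10, 12 of P15 and 32 of P05. The Cdh line supplied 50 pools of P18 from 5 animals, 16 of P15 from 3 animals and 10 of P05 from 1 animal.

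The used libraries held between 313655 and 27849014 gene counts (median 5378503), and 152 further libraries with cells had failed quality control. The 12 P15 pools of the Tnc line came from 3 animals, and 1 of those animals, TENA2524, supplied a single pool of 508631 counts. Sequencing lane 1 held 4 of the 5 Tnc animals, and lane 2 held TENA2524 with all Cdh animals, so lane and line cannot be told apart for most animals. Of 17 wells labelled as empty, 1 in lane 2 (44339 counts) reached 10 CPM (counts scaled to a library total of 1000000) for 8 of the 9 genes, and 14 reached it for none. The 17 wells had a median of 19 counts, so most of them could hardly show any of these genes. The sort gates had no CD45 step named in the labels. Epithelial identity followed the gates: Krt8, a keratin of simple epithelia, was at 1925 to 5242 CPM in the 5 P18 sums of the Tnc line and at no more than 0.0651 CPM in the 3 P15 sums.

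By gene position, on the mouse build GRCm38 with GENCODE M21, Ptprc lies at chr1:138062861-138175708 and Fcer1g at chr1:171229572-171234365, both on the minus strand. Tyrobp (chr7:30413760-30417585) and Lsp1 (chr7:142460809-142494867) lie on the plus strand. Laptm5 (chr4:130913125-130936141) and Adgre1 (chr17:57358691-57483527) also lie on the plus strand, as does Csf1r. Lyz2 (chr10:117277331-117282321) and Cd68 (chr11:69664213-69666153) lie on the minus strand. All 9 are protein-coding, and the counts cover their exons. Csf1r shares 873 exon bases with Hmgxb3 on the opposite strand, and Lyz2 has a near copy, Lyz1, so low values of both are uncertain.

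Promoter sequence is shown for 3 genes that differ in how they were distributed over the pools: Fcer1g and Lyz2 were concentrated in few pools, and Cd68 was spread over most populations. The sequences are the 250 bases before the RefSeq start, less any bases inside the gene as GENCODE draws it (GRCm38.p6, minus strand, at chr1:171234366-171234599, chr10:117282322-117282522 and chr11:69666171-69666420), printed 5′ to 3′. Capitals mark GAGGAA, a core recognised by the myeloid factor PU.1 (Spi1), searched on both strands.
Fcer1g: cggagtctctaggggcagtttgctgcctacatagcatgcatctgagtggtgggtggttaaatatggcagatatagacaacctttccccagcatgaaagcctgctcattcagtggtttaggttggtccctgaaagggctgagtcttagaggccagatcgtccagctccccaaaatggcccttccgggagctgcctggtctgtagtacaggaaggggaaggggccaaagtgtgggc
Lyz2: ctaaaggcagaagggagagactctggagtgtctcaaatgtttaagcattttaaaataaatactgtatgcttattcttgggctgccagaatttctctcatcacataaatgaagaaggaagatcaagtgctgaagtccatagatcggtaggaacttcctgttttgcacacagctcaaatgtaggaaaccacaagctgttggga
Cd68: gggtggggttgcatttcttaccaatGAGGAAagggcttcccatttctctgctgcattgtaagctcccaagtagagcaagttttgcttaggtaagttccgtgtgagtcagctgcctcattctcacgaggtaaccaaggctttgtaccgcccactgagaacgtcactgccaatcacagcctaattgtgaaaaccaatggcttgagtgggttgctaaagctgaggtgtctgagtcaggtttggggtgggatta
Windows of 250 bases were found for 5 of the 9 genes, and 3 of these (Ptprc, Laptm5 and Cd68) held the 6 letters on either strand, against 23.3% of 32851 windows of that length. A match of these letters describes the window only.

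A pool was counted as holding a gene at 10 CPM or more, with CPM taken over the pool's gene counts. CD45 was concentrated in the EpCAM-negative and EpCAM-low gates. Ptprc was held by 25 of the 335 pools: 12 of 12 P15 pools, 7 of 32 P05 pools and 4 of 25 P10 pools of the Tnc line, and 2 of 10 P05 pools of the Cdh line. It was held by 0 pools of P18, P17, P22, P09 and P16 and by 0 of the 16 P15 pools of the Cdh line. If those 16 pools were independent, counting error alone would allow a share of up to 18.75%. They share 3 animals, so the share could be higher. In a pool of 5 cells, fewer cells of a type and less RNA per cell cannot be told apart, so these are shares of pools and not of cells. Averaged over the 6 animals with both gates, 3 Tnc animals at 100% and 3 Cdh animals at 0% in P15, the share of pools holding Ptprc was 50.0 ± 54.8 percentage points higher in P15 than in P18 (SD, n = 6; higher in 3, lower in 0; exact two-sided sign-flip permutation p = 0.25, Benjamini-Hochberg adjusted p = 0.25 over 2 tests). For P05 against P18 the difference was 22.2 ± 18.7 points (SD, n = 6; higher in 4, lower in 0; exact permutation p = 0.125, adjusted p = 0.25), over 5 Tnc animals and 1 Cdh animal. Animals with no difference do not change under a sign flip, so 0.25 and 0.125 were the smallest p these values could give, and neither test could pass. The P15 difference was 25.0 points at 100 CPM and 33.33 points when a pool needed at least 10 reads, each with 2 animals higher, since the P15 pool of TENA2524 held Ptprc by 6 reads.

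**Figure D1:**
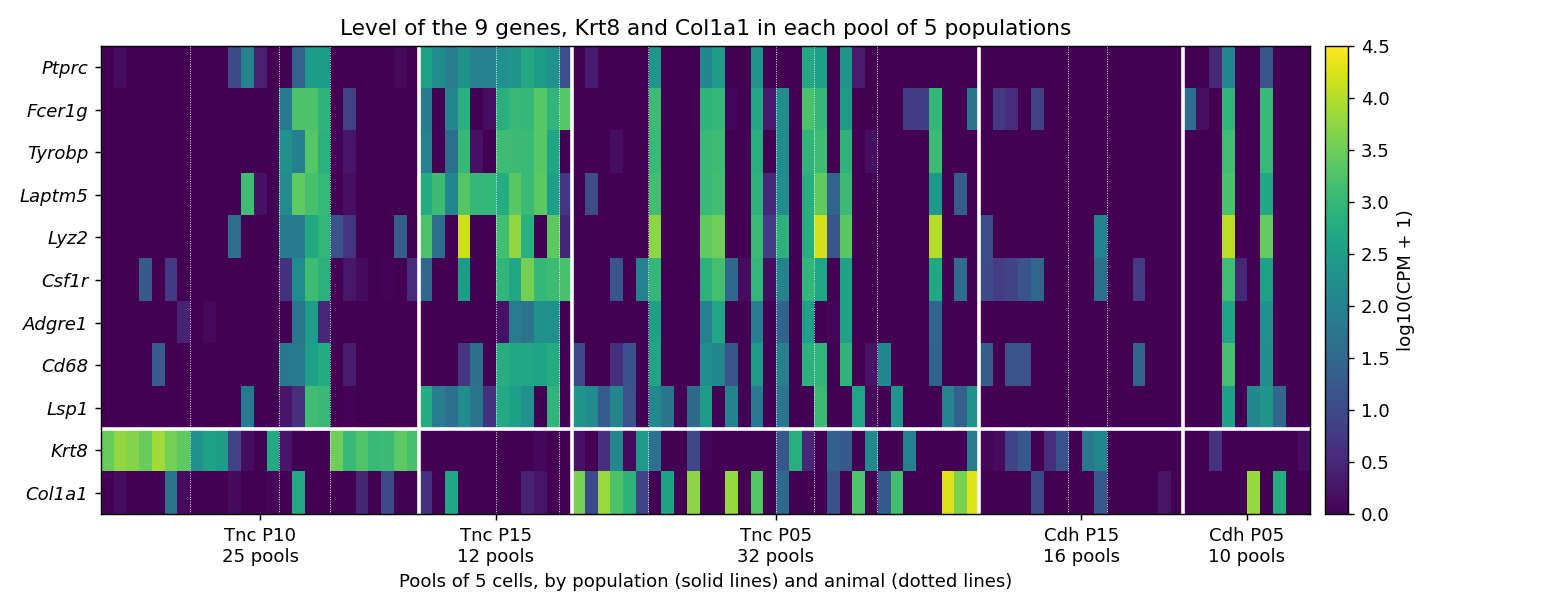
Level of each of the 9 genes, Krt8 and Col1a1 in single pools, as log10(CPM + 1), with pools along the horizontal axis by population and genes along the vertical axis. Only P10, P15 and P05 of the Tnc line and P15 and P05 of the Cdh line are drawn, with dotted lines between animals; Ptprc is present in all 12 Tnc P15 pools, and the other members appear as columns in part of Tnc P15, P05 and P10 and in 2 Cdh P05 pools.

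The 9 genes were carried together by a small group of pools. At least 5 of them were held by 24 pools: 8 of P15, 9 of P05, 4 of P10 and 1 of P17 in the Tnc line, and 2 of P05 in the Cdh line. All 9 were held by 9 pools, 3 of P15, 3 of P05 and 1 of P10 in the Tnc line and 2 of P05 in the Cdh line. None of the 229 pools of P18, P22, P09 and P16 in the Tnc line and P18 in the Cdh line held 5, and 160 pools of the series held none. The 24 pools did not have more counts than the rest: their median total was 3399144, against 5616241 in the other 311 pools.

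**Figure D2:**
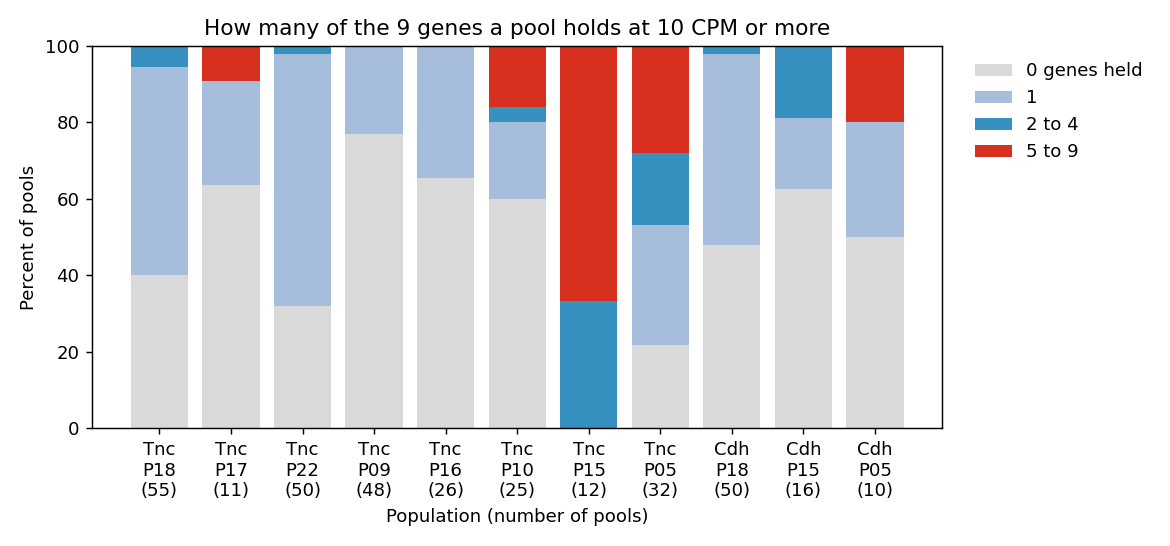
Number of the 9 genes held at 10 CPM or more, as stacked shares of the pools of each population, with the number of pools under each bar; the classes are 0, 1, 2 to 4 and 5 to 9 genes. Pools with 5 or more genes make up 66.7% of P15, 28.1% of P05 and 16.0% of P10 in the Tnc line and 20.0% of P05 in the Cdh line.

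The pools that carried the genes together came unevenly from the animals. In P05, 4 of 10 pools of TENA2483, 2 of 3 of TENA2517, 2 of 5 of TENA2524, 1 of 8 of TENA2560 and 0 of 6 of TENA2462 held at least 5. In P10, all 4 pools of TENA2517 did, and none of the 21 pools of the other 3 animals. In P15, 5 of 5 pools of TENA2517, 3 of 6 of TENA2483 and 0 of 1 of TENA2524 did. Without TENA2517, 13 of the 24 pools remain.

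Among the 24 pools, levels per kilobase of exon (RPKM) can be set side by side between genes. Tyrobp had the highest median (1574 RPKM), followed by Lyz2 (1178), Fcer1g (1050), Laptm5 (282.3), Cd68 (261.9), Csf1r (108.8), Lsp1 (28.7), Adgre1 (25.1) and Ptprc (11.3). The ranges of neighbours in this order overlapped, for example 62.5 to 3263 RPKM for Tyrobp and 76.6 to 2427 RPKM for Fcer1g. By median the message for CD45 was the least abundant of the 9 in these pools on this scale, which divides by the length of all annotated exons of the gene.

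The comparisons between gates used counts summed per animal and population, given below as CPM after TMM scaling, and were tested with edgeR's quasi-likelihood test with Benjamini-Hochberg adjustment over 33768 genes, all 9 members among them. A gene was called at an adjusted p below 0.05, and fold changes are on the log2 scale with their standard error (SE). The 7 comparisons with P18 in the Tnc line share the P18 samples, so they are not independent of each other.

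Ptprc stood at 148 CPM in the P15 sum of TENA2483, 265 in that of TENA2517 and 9.63 in that of TENA2524. In P05 it was at 107 CPM in TENA2483, 112 in TENA2517, 205 in TENA2524, 0.147 in TENA2462 and 0 in TENA2560. In P10 it reached 213 CPM in TENA2517 and 25.3 in TENA2483, and was at 0.0623 and 0.0260 in the other 2 animals. All 5 P18 sums of the Tnc line had 0 reads, so each P15 sum lay above every P18 sum, and 3 of the 5 P05 sums were in the range of P15. By mean level the order was P15 (141 ± 128, SD, n = 3), P05 (84.8 ± 86.8, n = 5), P10 (59.6 ± 103, n = 4) and the P05 sum of the Cdh line (10.4, n = 1), and the animals of P15, P05 and P10 overlapped; no other population exceeded 0.120 CPM on average. By pooled reads, Ptprc was at least 14.42 log2 units higher in P15 than in P18, counting 3 reads over the P18 sums as the floor. The fitted difference of 14.41 ± 3.29 had an adjusted p of 0.0520 in edgeR's quasi-likelihood test. For P05 the bound was 12.78 with an adjusted p of 0.0549, so Ptprc narrowly missed the threshold in both.

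Fcer1g, the adaptor of Fc receptors, was the only member called in both EpCAM-negative gates of the Tnc line. Its P15 sums were 117 CPM in TENA2483, 1232 in TENA2517 and 1778 in TENA2524, and its P05 sums were 447, 401, 436, 37.5 and 0 in TENA2483, TENA2517, TENA2524, TENA2560 and TENA2462. Its highest P18 sum in the Tnc line was 0.0726 CPM, so P15 did not overlap with P18, and 4 of 5 P05 sums lay above it. In edgeR's test Fcer1g rose by 15.23 ± 3.04 (SE) in P15 (adjusted p = 0.0304, higher in 3 of 3 animals) and by 15.66 ± 2.99 in P05 (adjusted p = 0.0325, higher in 4 of 5). The calls depended on which animals were in the fit: the adjusted p in P15 was 0.0525 without TENA2462, 0.219 without TENA2524 and 0.111 without TENA2560. TENA2462 and TENA2560 supplied no P15 pool used here, so leaving them out removed no P15 difference. The P15 call stayed without TENA2517 (adjusted p = 0.0158) and without TENA2483 (0.0463). In P05 the adjusted p was 0.0995 without TENA2462, 0.103 without TENA2483, 0.195 without TENA2524 and 0.150 without TENA2560. The P05 call stayed without TENA2517 (0.0131).

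Tyrobp, the second adaptor, was less even between animals. Its P15 sums were 1344 CPM in TENA2517, 130 in TENA2483 and 0 in TENA2524, whose 1 pool held Fcer1g at 2178 CPM and Csf1r at 1583 CPM. Its P05 sums were 773, 541 and 239 CPM in TENA2524, TENA2483 and TENA2517, 42.0 in TENA2560 and 0.220 in TENA2462. Its fold changes over P18 were 10.07 ± 3.36 in P15 (adjusted p = 0.150) and 10.56 ± 3.09 in P05 (adjusted p = 0.105) in edgeR's quasi-likelihood test, and neither was called. Each of the 24 pools that held Tyrobp also held Fcer1g and Laptm5, and they were the same 24 pools that held at least 5 of the 9 genes.

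Csf1r reached 1292 CPM in the P15 sum of TENA2524, 1263 in TENA2517 and 37.8 in TENA2483. Its P05 sums ran from 17.2 CPM in TENA2462 to 553 in TENA2483, and P18 sums of the Tnc line from 0 to 4.60, so neither gate overlapped with P18. The differences, 7.54 ± 2.13 in P15 (adjusted p = 0.0900) and 7.85 ± 2.03 in P05 (adjusted p = 0.0633), did not pass the threshold of edgeR's test. Of the 47 pools that held Csf1r, 22 held at least 5 members; 15 others were in the 5 epithelial groups, and 13 of those 15 also held Hmgxb3, which shares exon bases with it. The part of Hmgxb3 reads in these low values, with a median of 17.6 CPM, was not tested.

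Adgre1 (F4/80) was the most restricted gene, held by 17 pools, each of which held Fcer1g, Tyrobp and Laptm5. In P15 it was present in TENA2517 alone (107 CPM; 0 reads in TENA2483 and TENA2524). In P05 it was at 169 CPM in TENA2524, 113 in TENA2483, 87.5 in TENA2517, 0.996 in TENA2560 and 0 in TENA2462. P18 of the Tnc line had 0 reads of Adgre1. By pooled reads, Adgre1 was at least 12.08 log2 units higher in P15 and at least 12.65 higher in P05. In edgeR's quasi-likelihood test the fitted difference was 10.94 ± 3.61 in P15 (adjusted p = 0.158, higher in 1 of 3 animals). In P05 it was 14.97 ± 3.38 (adjusted p = 0.0517, higher in 4 of 5).

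Laptm5 encodes a lysosomal membrane protein of blood cells that lowers antigen receptor levels. Its P15 sums were 1345 CPM in TENA2517, 848 in TENA2483 and 3.21 in TENA2524. It rose by 13.12 ± 3.16 in P15 over P18 (adjusted p = 0.0458 in edgeR's test, higher in 3 of 3 animals) and differed by 12.41 ± 3.08 in P05 without a call (adjusted p = 0.0578). The P15 call was lost without any 1 of the 5 Tnc animals, with adjusted p from 0.0938 without TENA2524 to 0.208 without TENA2517, and 0.110, 0.177 and 0.142 without TENA2462, TENA2483 and TENA2560. Of these, TENA2462 and TENA2560 supplied no P15 pool used here, so leaving them out removed no P15 difference.

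Lyz2, a secreted lysozyme of macrophages and neutrophils, gave the highest CPM of the 9. In P05 its sums were 5862 CPM in TENA2524, 1415 in TENA2483, 392 in TENA2517, 329 in TENA2560 and 0 in TENA2462. In P15 they were 2030 in TENA2517, 1724 in TENA2483 and 1.61 in TENA2524. The fold changes, 15.24 ± 3.90 in P15 (adjusted p = 0.0580) and 14.64 ± 3.69 in P05 (adjusted p = 0.0591), were not called by edgeR's test.

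Cd68, a glycoprotein of late endosomes and lysosomes, behaved unlike the other 8. It was held by 131 pools, of which only 21 held at least 5 members and 100 held no other member. In the 5 epithelial groups 99 of 229 pools held it, at a median of 21.8 CPM, against a median of 417 CPM in the 21 pools with at least 5 members that held it. Its sums in P18 of the Tnc line ran from 2.98 to 34.5 CPM and overlapped with those of P15 (0, 7.59 and 546), and the difference of 1.12 ± 2.31 had an adjusted p of 0.990 in edgeR's test. In P05 the difference was 4.40 ± 2.09 (adjusted p = 0.359 in edgeR's test, higher in 3 animals and lower in 2), and DESeq2 called it (5.13, adjusted p = 0.0136).

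Lsp1 encodes an actin-binding protein of leukocytes. It was the second member called in P05 over P18, at least 13.92 log2 units higher with 0 reads in P18 (adjusted p = 0.0325 in edgeR's quasi-likelihood test, higher in 5 of 5 animals). Its P05 sums were 544 CPM in TENA2524, 181 in TENA2462, 122 in TENA2483, 51.3 in TENA2560 and 18.2 in TENA2517, so it was high in TENA2462, where Ptprc was at 0.147 and Col1a1 at 4014 CPM. The call was lost without any 1 Tnc animal (adjusted p 0.0708 without TENA2517, 0.126 without TENA2483, 0.130 without TENA2524, 0.138 without TENA2560 and 0.148 without TENA2462). In P15 it was at least 14.77 higher than in P18 without a call (adjusted p = 0.0580).

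**Figure D3:**
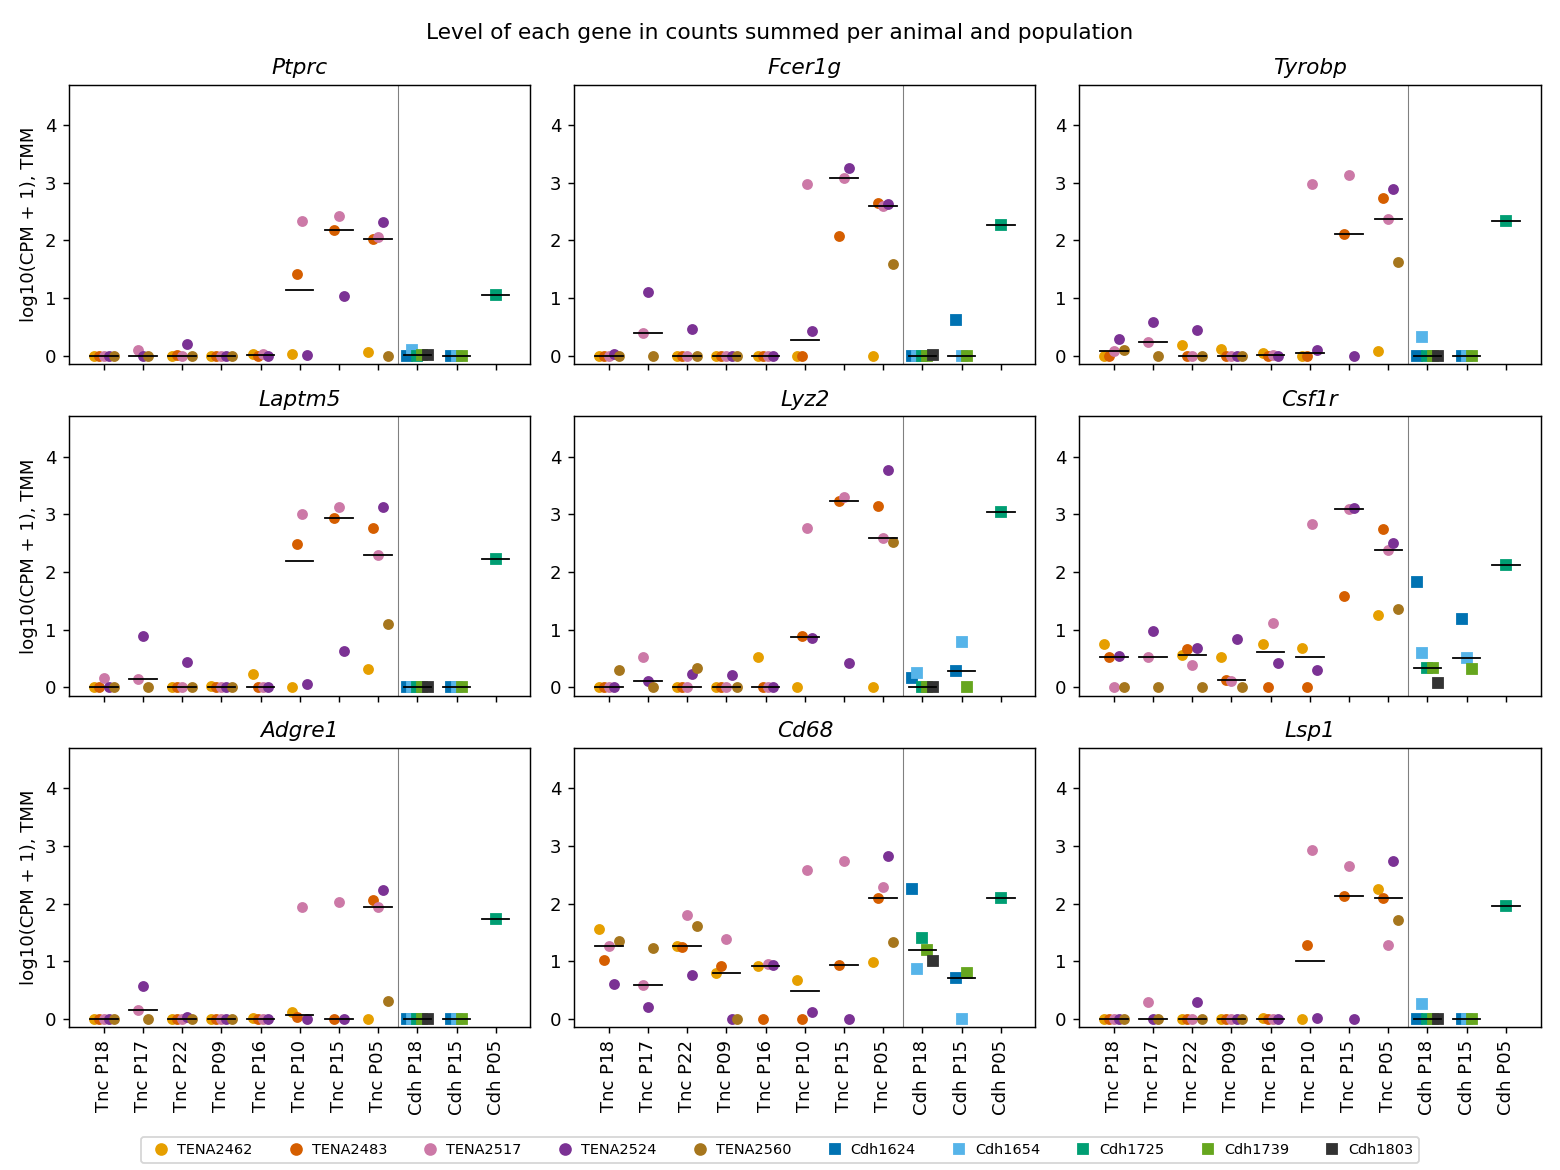
Level of each member as log10(CPM + 1) after TMM scaling, 1 point per animal and population (the sum of that animal's pools) with the median as a line. Tnc P15, P05 and P10 spread widely between animals, and the Tnc P18 points stay below 1 CPM except for Cd68 and Csf1r.

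In total 2 of 9 members were called higher in P15 than in P18 (Fcer1g and Laptm5), where 0.198% of the 33768 genes tested were called higher, and 2 of 9 in P05 (Fcer1g and Lsp1), where 0.352% were. At an unadjusted p below 0.05 the counts were 8 of 9 in P15 (5.04% of all genes) and 9 of 9 in P05 (6.98%). Without the animal as a block edgeR called 8 members in P15 and 6 in P05, and DESeq2 called 8 and 9, so these counts depend on the model. Counts under DESeq2 or without the block mostly stand here and below without the share of all genes called. They are therefore not read as a result about the members. The median fitted difference of the members was 13.12 in P15 and 14.14 in P05, or 13.12 and 12.65 with genes at 0 reads set to their bound, against -0.61 and -0.15 over all genes. In P10, 0 of 9 were called by edgeR (0.00296% of all genes higher), 8 were at an unadjusted p below 0.05 (4.59%), the lowest adjusted p was 0.390, and DESeq2 called 8. In P10, TENA2517 had the highest sums, with Ptprc, Fcer1g, Tyrobp and Csf1r at 213, 941, 936 and 691 CPM, while Krt8 was at 0.130 CPM in that sum and at 343 to 4858 in the other 3. TENA2483 also carried Laptm5 at 306.4 CPM and Ptprc at 25.28. Without TENA2517 the P10 difference was 13.99 for Laptm5, 9.95 for Ptprc, 3.56 for Fcer1g and -3.22 for Tyrobp, none of them called by edgeR.

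The remaining gates of the Tnc line held little of these genes. No member was called in P16, P09, P22 or P17 against P18 by edgeR, where at most 0.00296% of all genes were called higher; at an unadjusted p below 0.05 the counts were 0, 0, 1 and 2, against 3.22%, 0.977%, 1.09% and 1.19% of all genes higher, and DESeq2 called 3, 0, 2 and 3 higher. DESeq2 also called 1 lower in P16 (Fcer1g) and 4 lower in P09 (Ptprc, Fcer1g, Adgre1 and Lsp1), although Ptprc, Adgre1 and Lsp1 had 0 reads in both P09 and P18. In P17 the only pool with at least 5 members was 1 of TENA2524 with 329160 counts, which held Fcer1g at 280 CPM, Laptm5 and Csf1r at 228 and Krt8 at 21.3. P15 and P05 did not differ in any member by edgeR's test, with fitted differences from -4.03 ± 2.81 for Adgre1 (adjusted p = 0.686) to 0.71 ± 2.98 for Laptm5 (adjusted p = 1), where 0.136% of all genes were called; P15 and P10 also gave no call among the members (lowest adjusted p = 0.672, with 0.222% of all genes called).

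The 2 lines differed in what the P15 gate held. The 3 P15 sums of the Cdh line had 0 reads of Ptprc, Tyrobp, Laptm5, Adgre1 and Lsp1, and Fcer1g had 230 reads, in Cdh1624 alone. With 3 reads over the Cdh sums as the floor, the log2 ratio of the pooled level in Cdh over Tnc P15 was at most -13.12 for Ptprc, -14.67 for Tyrobp, -15.56 for Laptm5, -10.78 for Adgre1 and -13.47 for Lsp1. In edgeR's quasi-likelihood test of this comparison 6 members passed the filter on low counts, none was called (lowest adjusted p = 0.119; 0% of 14028 genes called), and 5 had an unadjusted p below 0.05, as had 10.6% of all genes in either direction. Within the Cdh line, no member was called higher in P15 than in P18 by edgeR (0% of all genes). At an unadjusted p below 0.05 by edgeR, 0 members were higher, against 1.3% of all genes. DESeq2 called Fcer1g higher and Ptprc, Tyrobp and Lsp1 lower, among 387 genes called higher and 1518 called lower of 33768. The difference of the P15 minus P18 contrast, Cdh minus Tnc, was -18.39 ± 4.99 for Ptprc (adjusted p = 0.333 in edgeR's test) and -8.44 ± 3.01 for Csf1r (adjusted p = 0.476). In P18, 2 members passed the filter between lines, Csf1r (2.99 ± 1.77, Cdh minus Tnc) and Cd68 (1.54 ± 1.01), and neither was called by edgeR or DESeq2 (adjusted p = 1 in both by edgeR; 0% of 17878 genes; 0 at an unadjusted p below 0.05, against 2.41% of all genes). edgeR called no member in the test of the difference of contrasts, against 0.00888% of all genes. Estimates for Fcer1g, Laptm5 and Adgre1 are left out, because their standard error could not be computed or was very large. DESeq2 called 7, all lower in the Cdh line, given without the share of all genes. Every Cdh P15 sum came from lane 2, as did only 1 Tnc P15 pool, so the part of the lane cannot be told apart from that of the line.

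P05 of the Cdh line, from animal Cdh1725 alone, did carry the genes. Its sum held Lyz2 at 1100 CPM, Tyrobp at 218, Fcer1g at 187, Laptm5 at 167, Csf1r at 134, Cd68 at 122, Lsp1 at 90.9, Adgre1 at 52.8 and Ptprc at 10.4. All 9 genes were held by each of 2 of the 10 pools, with Lyz2 at 11400 and 2625 CPM and Krt8 at 0 in both. Fcer1g was held by 3 of the 10 pools and Lsp1 by 4, while the other members were held by those 2 pools alone. No member was called against P18 by edgeR (0% of all genes; 7 of 9 at an unadjusted p below 0.05, against 0.711% of all genes higher; DESeq2 called 6), and with 1 animal the spread is borrowed from the other sums.

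Of the 25 pools holding Ptprc, 7 held B cell markers and 17 held tissue macrophage markers, by limits chosen after the values were seen, and the single P15 pool of TENA2524 met neither limit. At least 4 of 5 B and plasma cell markers were held by 7 pools, all of TENA2483: its 6 P15 pools and 1 P10 pool. These held Cd79a, the signalling chain of the B cell receptor, at 139 to 1020 CPM, and Ms4a1 (CD20) in 7 of 7. Of the members, Ptprc (76.9 to 370 CPM) and Laptm5 (117 to 1942) were held by 7 of 7 and Lsp1 by 6. Tyrobp, Fcer1g and Lyz2 were held by 3, Csf1r by 2, Cd68 by 1 and Adgre1 by 0, with 0 reads in all 7. The complement genes C1qb and C1qc, defining for tissue macrophages, were at 0 in all 7, and so was the T cell gene Cd3e, while Lck was held by 5. Of the same macrophage list, Ctss was held by 7 of 7 (20.23 to 1105 CPM), Cd14 by 2 (up to 4027 CPM) and Mrc1 and Mpeg1 by 1 each, and up to 3 neutrophil and 3 monocyte markers were held in P15 pools of TENA2483.

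At least 8 of 12 tissue macrophage markers were held by 21 pools, from 5 animals, and no pool was in both sets. In these 21, Fcer1g, Tyrobp, Laptm5, Cd68, C1qa, C1qb, C1qc and the cathepsin Ctss were held by 21, Csf1r and Lyz2 by 20, Ptprc and Adgre1 by 17 and Lsp1 by 13. Cd79a, Ms4a1 and Jchain were at 0 in all 21, while Cd79b of the same list was held by 2, at up to 245.5 CPM. The neutrophil gene S100a8 was at 0 in all 21, and 1 other neutrophil marker was held in P10 of TENA2517, where that list summed to at most 121.2 CPM. Markers of further cell types were present in part of the 21. The dendritic cell gene Siglech was held by 5, at up to 1550 CPM, and Lck by 1, at 228.1 CPM. In P10 of TENA2517 the dendritic cell list summed to at most 1173 CPM and the monocyte list to at most 292.5 CPM. The median of Ptprc was 97.9 CPM in the B cell set and 211 in the macrophage set, with ranges (76.9 to 370 and 0 to 528 CPM) that overlapped. In the P15 pools of TENA2483 the B and plasma cell list summed to 453 to 2449 CPM and the macrophage list to 150 to 5327, and in those of TENA2517 to 0 to 20.0 and 7259 to 24840. The part of these cell types in the P15 difference from P18 was not tested.

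**Figure D4:**
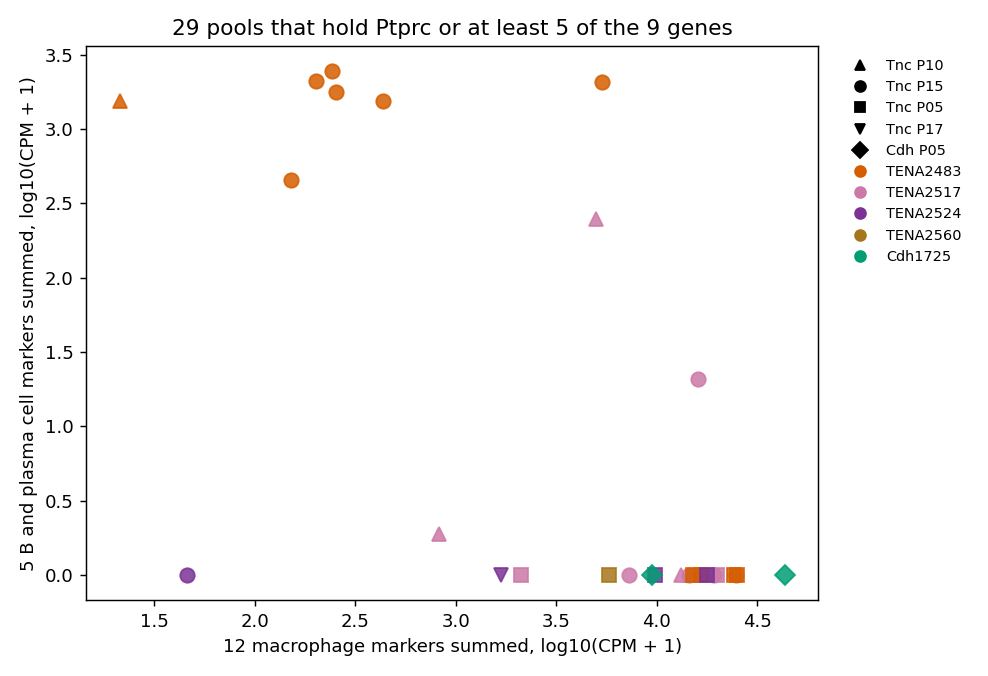
Sum of the 5 B and plasma cell markers (vertical) against the sum of the 12 macrophage markers (horizontal), both as log10(CPM + 1), in the 29 pools that held Ptprc or at least 5 members; colour gives the animal and shape the population. The 6 P15 pools and the P10 pool of TENA2483 lie at the top, and the other pools lie lower on the vertical axis.

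Few pools carried the genes together with Krt8. Krt8 was held by 271 pools, and of these 2 held Ptprc, 5 Fcer1g, 4 Tyrobp, 5 Laptm5, 12 Lyz2, 24 Csf1r, 4 Adgre1, 5 Lsp1 and 107 Cd68. Of the 24 pools with at least 5 members, 4 held Krt8, at 15.1 and 47.5 CPM in P05 of TENA2517 and TENA2483, 21.3 in P17 of TENA2524 and 18.1 in P05 of TENA2524. Those 4 values lie far below the lowest P18 pool of the Tnc line, at 660 CPM. Col1a1, the fibroblast collagen, was held by 4 of the 24, at 35.0 CPM in P05 and 555 in P10 of TENA2517, and at 483 in P15 and 2055 in P05 of TENA2483. 1 pool held both and 17 held neither.

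**Figure D5:**
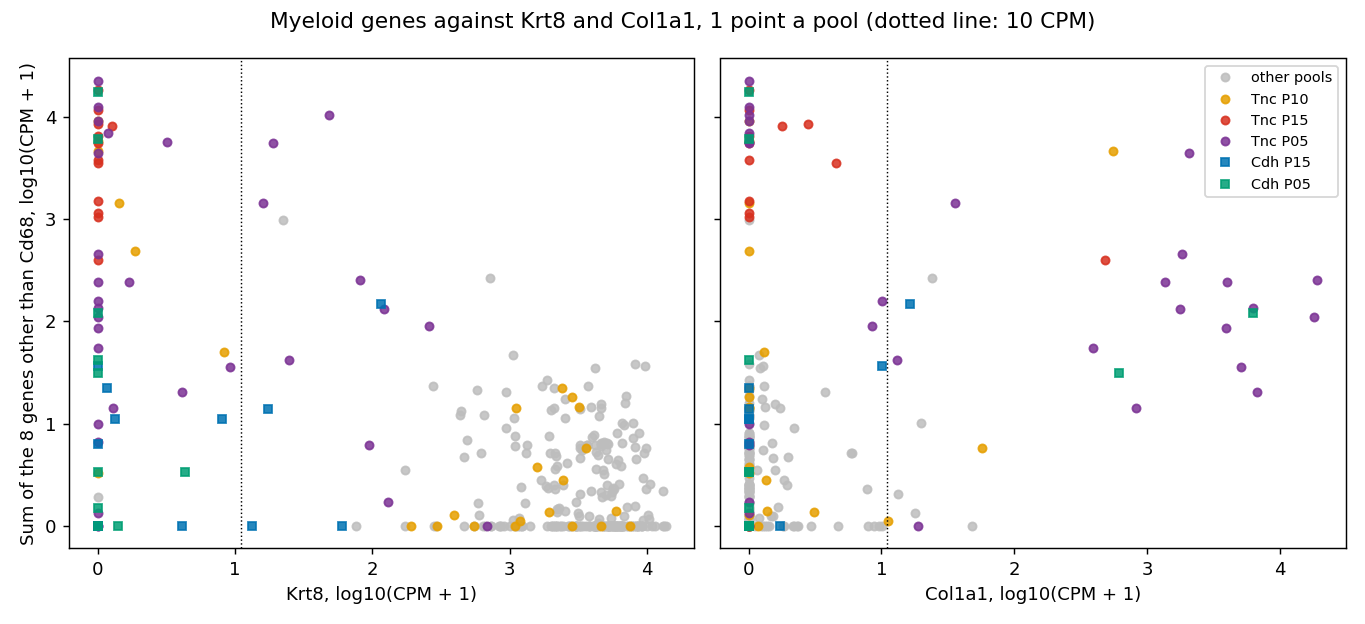
Sum of the 8 members other than Cd68 in each pool against Krt8 (left) and Col1a1 (right), all as log10(CPM + 1), with a dotted line at 10 CPM. Pools high in the members lie mostly at the low end of Krt8 and Col1a1, with 4 of the 24 pools of at least 5 members at 10 CPM or more of each.

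Lsp1 was the member that went with collagen. Of the 35 pools that held it, 16 held at least 5 members, with a median of 326 CPM of Lsp1. Another 14, with 12 from P05 of the Tnc line and 2 from P05 of the Cdh line, held Col1a1 at 391 to 19100 CPM with Lsp1 at 13.3 to 455 (median 106) and Ptprc at no more than 1.17 CPM. The other 5 were 3 pools of TENA2483 that held Ptprc and 2 that held neither. Within P05 of the Tnc line, 14 of the 16 pools that held Col1a1 held Lsp1 and 1 held Ptprc, while of the 16 without Col1a1 4 held Lsp1 and 6 Ptprc.

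Genes that act with the members were present in the same gates. Beside the list counts that follow, 0.198% of all genes tested were called higher in P15 and 0.352% in P05. Of 15 ITAM receptors and kinases, 1 was called higher in P15 and in P05, the kinase Syk, at least 14.23 and 12.34 log2 units above P18 (adjusted p = 0.0170 and 0.0277 in edgeR's quasi-likelihood test). The list's median fitted difference was 5.96 in P15 and 7.02 in P05, and its most abundant genes, Fcgr2b, Fcgr3 and Trem2, were not called (adjusted p 0.0705, 0.0967 and 0.482 in P15). Of 15 genes of the leukocyte cytoskeleton and the NADPH oxidase, 3 were called in P15 and 5 in P05, with medians of 11.05 and 10.67. Coro1a, an actin-binding protein of leukocytes, rose by 14.57 ± 2.76 in P15 and 13.50 ± 2.63 in P05 (adjusted p = 0.0170 and 0.0312); Ncf4 was also called in both gates, and Cybb and Itgam in P05. Of 13 genes of the CSF1 axis and the myeloid transcription factors, 0 were called in P15 and 1 in P05, Csf2rb, and Spi1 (PU.1) was at least 14.69 and 12.62 higher without a call (adjusted p = 0.0869 and 0.0837). Of 12 tissue macrophage genes, 1 was called in P15 (Mrc1) and 1 in P05 (Ms4a7), and C1qb had adjusted p of 0.186 and 0.0586. Cd14 was also high in epithelial cells, at 663 to 1484 CPM in P18, and did not differ by the test (adjusted p = 1 in P15 and 0.928 in P05).

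Lists of other cells moved in part with the same gates. Of 5 monocyte genes Plac8 was called in P15, and of 7 dendritic cell genes (6 tested) Itgax in P05; no gene of the neutrophil (7), T and NK cell (10, 9 tested), B and plasma cell (5), mast cell and basophil (5, 1 tested), erythroid (5), endothelial (6) or pericyte (5) lists was called in either. The B and plasma cell list had a median of 10.60 in P15, carried by TENA2483: Cd79a was at 616 CPM in that sum and at 0 in the other 2. Epithelial genes were called lower, 7 of 9 in P15 and 3 of 9 in P05, with Krt8 down to 1 read in P15. The share of all genes called lower is not given here. Of 9 fibroblast genes, 2 were called higher in P15 and 6 in P05, where Col1a1 rose by 12.89 ± 2.15 (adjusted p = 0.0107).

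The genes whose set of pools was most like that of Ptprc, by the pools holding both over the pools holding either, were immune genes. Over all 335 pools Bcl2a1d came first (0.920; 23 of its 23 pools held Ptprc), then Coro1a (0.828), Bcl2a1b (0.821), Cd53 and Mir5107 (0.815), Cybb and Ly86 (0.808), Cd86 (0.786), Lst1 (0.769) and Fcgr2b (0.750). Bcl2a1b and Bcl2a1d are near copies whose reads can be exchanged, and the Mir5107 interval lies inside the gene Cd74, so its value may be that of Cd74. Among the members the index was 0.774 for Laptm5, 0.690 for Tyrobp, 0.677 for Fcer1g, 0.50 for Adgre1, 0.487 for Lyz2, 0.429 for Lsp1, 0.385 for Csf1r and 0.130 for Cd68. Laptm5, which was present in both the B cell and the macrophage set, was the member closest to CD45 in its distribution.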

How the data were processed

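Smart-seq2 libraries of 5-cell pools were deposited by the authors as 1 table of raw counts per gene (55450 Ensembl identifiers, all matched to GENCODE M21 symbols). The submitters' processing notes name STAR, SAMtools, Subread, featureCounts and the build mm10; tool versions and strand setting: not given in the sources used here. Libraries marked as failed (152) and empty wells (17) were left out. Pools were compared by CPM over their own total. For tests, counts were summed per animal and population (43 sums, 2 of 1 library), since the animal is the replicate. In the joint fit, p-values measure how differences between populations vary from animal to animal. That spread is pooled over the sums of both lines and all gates, not taken from the 2 gates compared alone. One edgeR quasi-likelihood fit (TMM factors 0.5696 to 2.528, filterByExpr, robust, animal as a block because the same animals supplied several gates) covered 33768 genes with 24 residual degrees of freedom; P15 and P18 were compared between lines in separate fits without the block. Adjustment was by Benjamini-Hochberg, with a call at 0.05. A fold against 0 reads was bounded from reads pooled over animals, with 3 reads over the group as the floor. The pipeline was tested on simulated data, drawn with a fixed spread and no differences between animals. The genes changed there had expected counts in every sum, so it does not cover genes at 0 reads in many sums. DESeq2, other scalings and filters, and leaving out each animal were tried. When an animal was left out, the joint fit took the trend of the spread from every 10th gene, unlike the main fit. With that trend and all animals, edgeR still called Fcer1g and Laptm5 in P15 and Fcer1g and Lsp1 in P05. The members and lists were chosen with earlier results of these data known. Some genes of the lists are not reported here by name. Genes named are the 9 members, Krt8, Col1a1, the genes called in each list, the 3 most abundant genes of a list over the P15 and P05 sums, and the 10 genes closest to Ptprc; others were chosen after their values were seen. Sequences come from RefSeq on GRCm38.p6.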

Additional observations from a re-analysis of the deposited data

Results flagged for a closer look

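In P10 of the Tnc line, TENA2517 stood far above the other 3 animals in 8 of the 9 genes, with Ptprc at 213 CPM, Fcer1g at 941.1, Tyrobp at 936.2, Lyz2 at 575.6, Csf1r at 690.6, Adgre1 at 85.01, Cd68 at 381.1 and Lsp1 at 840.1. In P05, TENA2524 stood apart in Lyz2 (5862 CPM) and Cd68 (660.4 CPM). In P18 of the Cdh line, Cdh1624 stood apart in Csf1r (66.6 CPM) and Cd68 (176.9 CPM), each largely from 1 shallow pool, of 559174 and 320085 counts. These 12 values came from 24 combinations of gene and population tested for a sample far from the others. A combination was tested only where its highest sum reached 10 CPM. The cut-off assumes normally spread values, which these unlogged CPM are not, so no chance rate can be given. The 8 of TENA2517 share 1 set of pools.

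Signal was also present outside the libraries used. An empty well of lane 2 held 8 of the 9 genes at 10 CPM or more, with 44339 counts in all and Ptprc at 744.3 CPM, Tyrobp at 699.2 and Lyz2 at 4195. Another, with 16386 counts, held 2 of them, Tyrobp at 9398 CPM and Laptm5 at 61.03. Of the 152 libraries that failed quality control, 5 held at least 5 of the 9 genes.

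Csf1r was higher in P15 than in P18 in 3 of 3 Tnc animals and lower in 3 of 3 Cdh animals. In 2 Cdh animals the values were close (2.207 against 2.855 CPM in Cdh1654 and 1.037 against 1.172 in Cdh1739), and the P18 sum of Cdh1624 rests on 2 pools. The log2 ratio of the pooled Cdh levels was 2.45, of the opposite sign, and all 4 Cdh P15 pools that held Csf1r also held Hmgxb3. The difference of the contrasts was -8.44 ± 3.01 log2 units, Cdh minus Tnc, and was not called by edgeR's quasi-likelihood test (adjusted p = 0.476).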

How the results depend on the processing

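The number of members called depended on the model. The counts below stand without the share of all genes called in each setting, and that share also moved. In Cdh P15 against P18, DESeq2 called 387 genes higher and 1518 lower of 33768, where edgeR called 0 higher. For P15 against P18 (2 called) it was 8 without the replicate block of animals, 8 with DESeq2, 8 with failed libraries added, 5 with only the populations compared and 4 with libraries weighted equally. For P05 against P18 (2 called) it was 6 without the block, 9 with DESeq2, 4 with RLE scaling, 4 with no filter on low counts, 6 with at least 3 libraries per sum, 7 with failed libraries added, 0 with only the populations compared and, chosen after seeing the data, 6 without libraries under 1000000 counts. Where edgeR called 0 higher, DESeq2 called 8 higher in P10, 3 in P16 (and 1 lower), 0 in P09 (4 lower), 2 in P22, 3 in P17, 1 in Cdh P15 (3 lower) and 6 in Cdh P05. In either direction it called 5 in Cdh against Tnc P15 (4 by edgeR with no filter) and 7 in the difference between lines, all lower. Dropping the block changed no other count. Leaving out 1 animal gave 0 to 4 calls in P15, 0 to 6 in P05 and 0 in the other comparisons refitted; it was not run for P16, P09, P22, P17, Tnc P15 against P10 or Cdh P05. It gave 14 to 25 pools with Ptprc, 13 to 24 with at least 5 members, 2 to 4 of these with Krt8, 2 to 4 with Col1a1 and 8 to 17 with neither. The differences in the share of pools with Ptprc then ran from 40.0 to 60.0 points for P15 and 18.67 to 26.67 for P05; for P15 it was 25.0 at 100 CPM and 33.33 at 10 or more reads. At 1 CPM 8 pools of at least 5 members held Krt8, and at 100 CPM 0 held Krt8 and 1 Col1a1. The cause of these changes was not tested.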
